A study of Bos taurus with 12 samples.

Results

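The genes of glycolysis and glycogen metabolism are 32 genes that carry glucose into the muscle fibre, break it down to lactate, and store it as or release it from glycogen. The list follows the steps of the pathway. Probes were assigned to them through the gene name, gene number, accession or description in the scanner files. All 32 had a probe, 39 probes in all, among 19734 gene names on 21475 probes. Of these genes 31 were tested, out of 13669 tested in all, and each of the 31 probes was well above background on all 12 arrays. ENO1, the widely made enolase, was left out because its probe was well above background on 2 of 12 arrays.

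The messenger RNA came from the biceps brachii of male cattle (Bos taurus) aged 18 to 20 months, taken after slaughter. The first group was fed dexamethasone, a synthetic glucocorticoid, together with clenbuterol, a beta-adrenergic agonist: dexamethasone at 0.66 mg per head for 21 days, and 28 days of clenbuterol, with 2 mg per head in the first week, 4 mg in the second and 6 mg after that. The second group was fed dexamethasone alone at 0.75 mg per head for 42 days, and the control group was untreated. Each group had 8 of the 24 bulls, and the 4 samples with the best RNA in each were hybridised, so each array is a different animal and the animals were not a random draw. Clenbuterol is not the only difference between the treatments, because dexamethasone was given at another dose and for another time, so the comparison between them does not isolate clenbuterol. How long before slaughter the last dose was given was not stated in the sources used here.

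Skeletal muscle takes up glucose through the transporter GLUT4, traps it with hexokinase and either burns it through glycolysis or stores it as glycogen. Fast fibres are rich in glycolytic enzymes and glycogen phosphorylase, while slow fibres lean on oxidation. Adrenaline and other beta-adrenergic agonists drive glycogen breakdown through phosphorylase kinase, and glucocorticoids restrain glucose uptake in muscle. The adrenergic signal acts in part on enzymes already present, and glucocorticoids act through a receptor that alters transcription.

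Signal was measured on 1-colour Agilent arrays and is given on a log2 scale with the 75th percentile of the array at 0. A difference of 1 on this scale is a factor of 2. Levels of different probes were not compared, since probes bind with different strength. Between 53.2% and 68.7% of spots stood well above background, depending on the array, and the precision is limited by the number of arrays. The striated muscle markers ACTA1, CKM, TTN, NEB, DES and MB were all detected and tested, so the labelled tissue was borne out by its defining markers. Tissue RNA of this kind cannot tell fewer fibres of a type from less RNA per fibre.

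Array 1 of the dexamethasone group stood apart in these genes, so values without it are given beside the results it bears on. It was the lowest of the 12 arrays for 20 of the 31 members, where 16.4% of all genes had their lowest value on it. It was also the lowest for 9 of the 10 tested genes of the glycolytic chain from GPI to PKM. Averaged over those 10 genes and centred on each gene's mean, it stood at -0.99, against -0.31 to 0.38 on the other 11 arrays. The 9 tested fast fibre markers also averaged lowest on it, at -1.29 against -0.61 to 0.94 on the others, and the 10 slow fibre markers averaged 0.72, against -0.92 to 0.72. The fast fibre markers were uneven on this array. ACTN3, ATP2A1, MYH1, MYLK2, PVALB and TNNC2 had their lowest value on it, TNNT3 and CASQ1 did not, and MYH4 had its highest (2.65). Leukocyte markers averaged 0.78 on it, against -1.23 to -0.32 on the other dexamethasone arrays and 0.37 to 0.80 on control arrays. Markers of other cells differed between the groups as well. All 8 fibroblast markers lay below 0 in dexamethasone against control (median log2 change -1.35), 7 of them with an unadjusted p under 0.05 and 0 called, and 7 of 8 did in the combination against control (median -0.69). Of 7 leukocyte markers 5 lay below 0 in dexamethasone against control (median -0.77), and CD3E of the T cell receptor was called lower (log2 change -1.74 ± 0.31, limma adjusted p = 0.0312). The part of fibre type or of other cells in the results below was not tested.

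**Figure D1:**
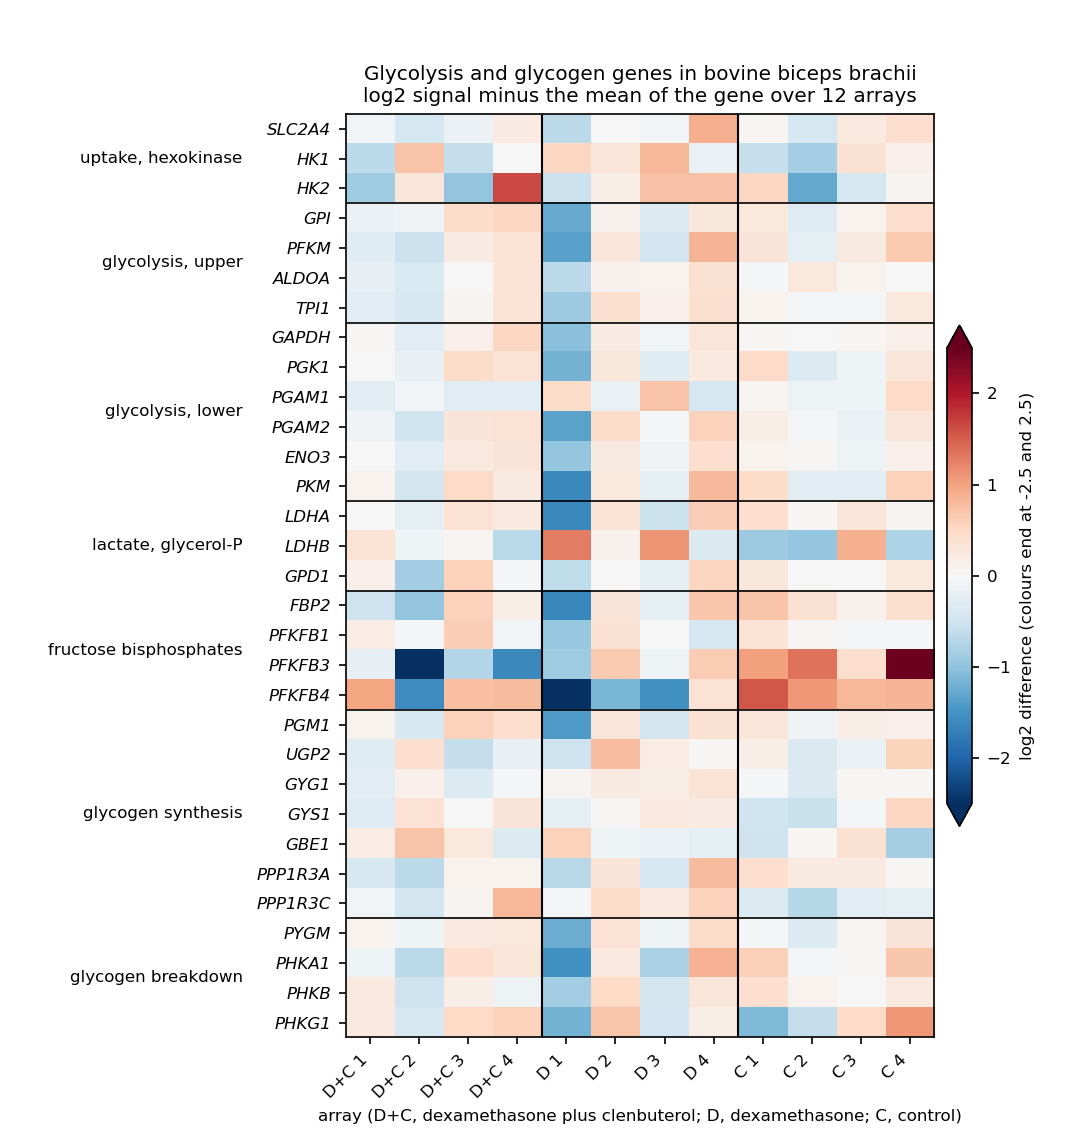
Heat map of the 31 tested members (rows, grouped by role) on the 12 arrays (columns), coloured by log2 signal minus the gene's mean over all arrays, from blue (lower) to red (higher). Dexamethasone array 1 is blue for most members and lowest of all arrays for 20 of 31, and PFKFB3 and PFKFB4 have the strongest colours.

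No member passed the test in any of the 3 comparisons. In dexamethasone against control, limma called 0 of 31 members at an adjusted p under 0.05, where 0.615% of all genes were called (84 of 13669). For the combination against control it called 0 of 31, against 0.0439% of all genes, and in the combination against dexamethasone 0 of 31, against 0.0146%. At an unadjusted p under 0.05 there were 2, 1 and 2 members in these comparisons, or 6.45%, 3.23% and 6.45%, against 12.3%, 12.1% and 11% of all genes. The groups' 4 values did not overlap for 3 members in dexamethasone against control (9.68%, against 6.45% of all genes). There was 1 such member in the combination against control (3.23%, against 8.23%), and 0 in the combination against dexamethasone (against 5.3%). The shares of members were thus close to or below those of all genes, except for non-overlap after dexamethasone. The first 2 comparisons share the control arrays, and the third shares its arrays with both.

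The intervals bound the size of change that the arrays leave possible. The standard errors of the log2 changes ran from 0.16 to 0.67, with a median of 0.32. The 95% interval lay within a log2 change of 1 in either direction for 16 of 31 members in dexamethasone against control. It did so for 20 in the combination against control and for 17 in the combination against dexamethasone. The median log2 change of the 31 members was -0.17 in dexamethasone against control (9 above 0 and 22 below), against 0.03 over all genes. It was -0.05 in the combination against control (14 above 0 and 17 below), against 0.03 over all genes. Between the combination and dexamethasone it was 0.08 (19 above 0 and 12 below), against 0.02. Without dexamethasone array 1 the first of these was 0.11, with 18 of 31 members above 0, and the last was -0.20, with 7 above 0. The direction of those 2 medians therefore depends on that array. The last median also fell just below 0 without combination array 4 (-0.003) and with each array scaled to its median (-0.017).

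**Figure D2:**
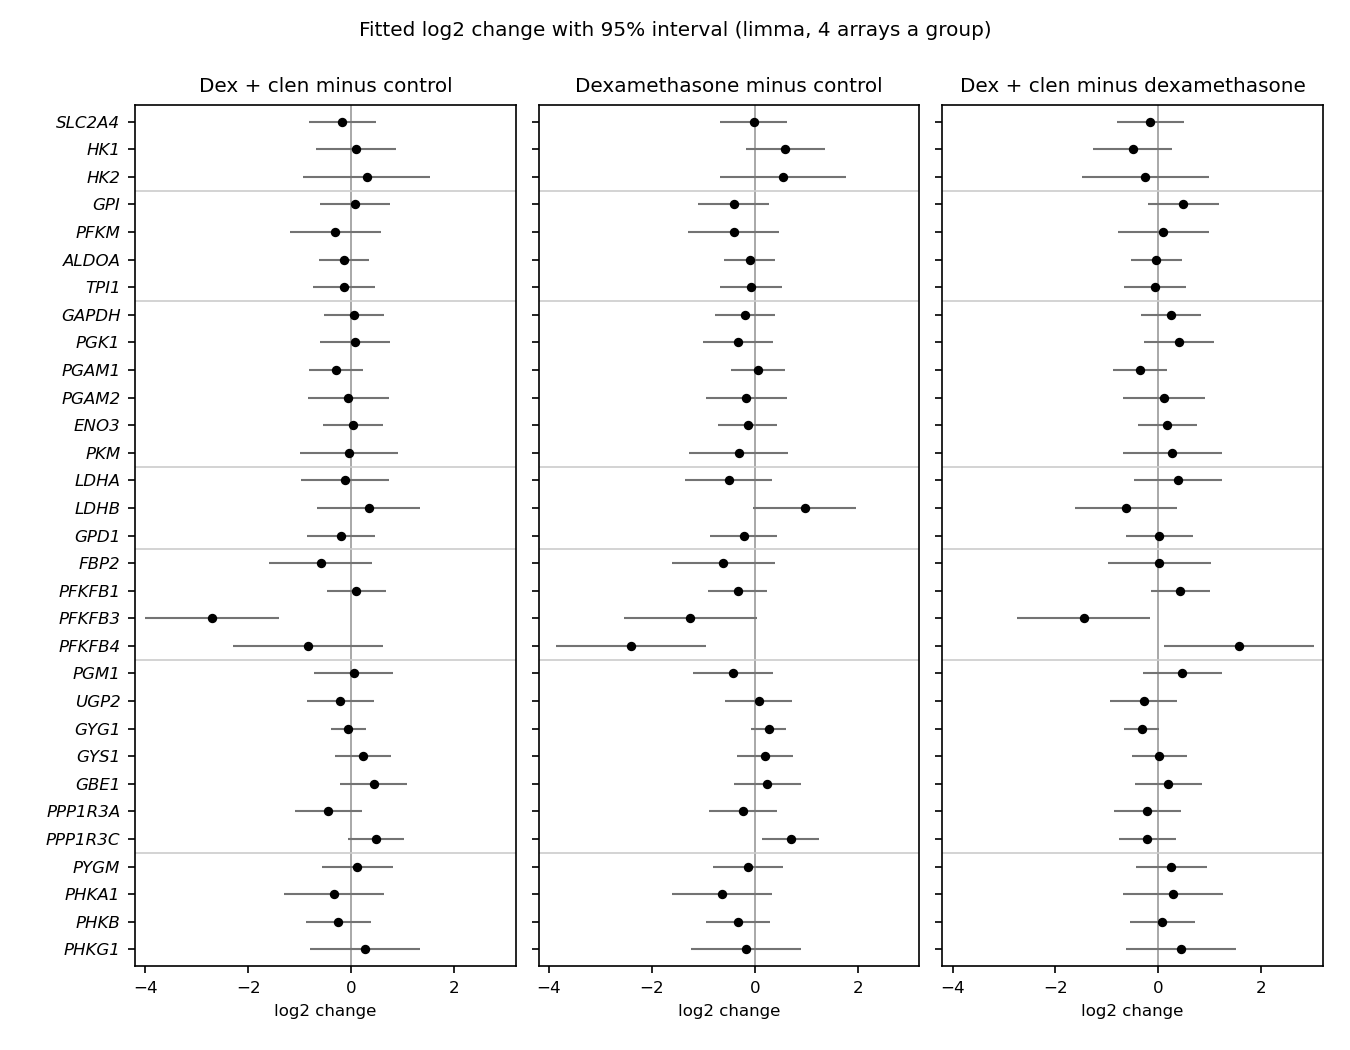
Fitted log2 change (points) with 95% interval (lines) of each of the 31 tested members, for the combination minus control, dexamethasone minus control and the combination minus dexamethasone, 4 arrays a group. Most intervals cross 0, and the intervals farthest from 0 are those of PFKFB3 and PFKFB4.

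The largest differences lay in the genes that set the level of fructose bisphosphates. PFKFB1, PFKFB3 and PFKFB4 encode bifunctional enzymes that make and break down a fructose bisphosphate that activates phosphofructokinase, and FBP2 encodes the muscle fructose bisphosphatase that runs the opposite step. All 4 lay below 0 in dexamethasone against control, with a median log2 change of -0.93, and without dexamethasone array 1 all 4 still did, with a median of -0.54. In the combination against control 3 of 4 lay below 0 (median -0.72), and in the combination against dexamethasone 3 of 4 lay above it (median 0.22), or 2 of 4 (median -0.13) without dexamethasone array 1. None of the 4 passed the test in any comparison.

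PFKFB3, the form known for a high kinase activity, had log2 signals of 4.16, 1.36, 3.64 and 2.76 in bulls given the combination. It had 3.48, 5.01, 4.23 and 4.99 after dexamethasone alone, and 5.38, 5.72, 4.81 and 6.82 in controls. Every combination array lay below every control array, while the dexamethasone arrays overlapped with both of the other groups. PFKFB3 averaged 2.98 ± 1.23 in the combination group and 5.68 ± 0.84 in controls (SD, n = 4 each), which is 6.51-fold lower. The log2 change was -2.70 ± 0.60 (SE; 95% interval -4.00 to -1.41), and its limma adjusted p over all genes was 0.16. Against dexamethasone the combination stood at -1.45 ± 0.60 (limma adjusted p = 0.398), and dexamethasone against control at -1.25 ± 0.60 (limma adjusted p = 0.422). Without dexamethasone array 1 these were -1.77 and -0.94. The order of the group means was thus combination, dexamethasone, control, from low to high, with the intervals of both neighbouring differences wide.

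The scan day is partly tied to the groups, since day 2 held array 4 of the controls and arrays 1 to 3 of each treated group. Controls 1 to 3 were scanned on day 1, dexamethasone array 4 on day 3 and combination array 4 on day 4. Values given outside day 2 therefore set arrays of different days against each other. Slide is tied to the groups as well. The combination arrays were on slides 3 and 5, which held no other group, so slide and treatment cannot be told apart in their comparisons. Within day 2 the PFKFB3 change in the combination against control was -3.77 (3 arrays against 1), and outside it -2.55 (1 against 3). With the scan as a block in 2 levels, day 2 and all other days pooled, it was -2.88 (limma adjusted p = 0.391). Over all alternatives this change ran from -3.77 to -2.16, with limma adjusted p from 0.113 to 0.391. The difference in dexamethasone against control was less even, at -2.58 within day 2 and -0.31 outside it.

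PFKFB4, another of these enzymes, had log2 signals of 5.31, 2.75, 5.07 and 5.12 in the combination group. It had 1.32, 3.17, 2.81 and 4.69 after dexamethasone alone, and 5.88, 5.40, 5.16 and 5.17 in controls. All 4 dexamethasone arrays lay below all 4 controls, whereas array 2 of the combination group lay far below its other 3. PFKFB4 averaged 3.0 ± 1.38 after dexamethasone and 5.40 ± 0.34 in controls (SD, n = 4 each), which is 5.29-fold lower. The log2 change was -2.40 ± 0.67 (SE; 95% interval -3.86 to -0.95; limma adjusted p = 0.147). Without dexamethasone array 1 it was -1.85. Within scan day 2 it was -2.73, outside it -0.79, and with the scan block -1.85 (limma adjusted p = 0.427). The combination stood at -0.84 ± 0.67 against control (limma adjusted p = 0.637) and at 1.57 ± 0.67 against dexamethasone (limma adjusted p = 0.413). Without array 2 of the combination group these were -0.23 and 2.17, and without dexamethasone array 1 the second was 1.01. PFKFB3 and PFKFB4 thus had their lowest group means in different treated groups, and neither difference between the treated groups passed.

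FBP2 had log2 changes of -0.61 ± 0.46 in dexamethasone against control and -0.59 ± 0.46 in the combination against control (limma adjusted p = 0.643 and 0.624). Its dexamethasone arrays read 5.14, 7.09, 6.54 and 7.47, against 7.49, 7.15, 6.88 and 7.16 in controls. Array 1 was the low one, and without it the change was -0.14. PFKFB1 showed smaller differences, from -0.33 in dexamethasone against control to 0.43 in the combination against dexamethasone, each with an SE of 0.26. These were -0.10 and 0.20 without dexamethasone array 1.

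**Figure D3:**
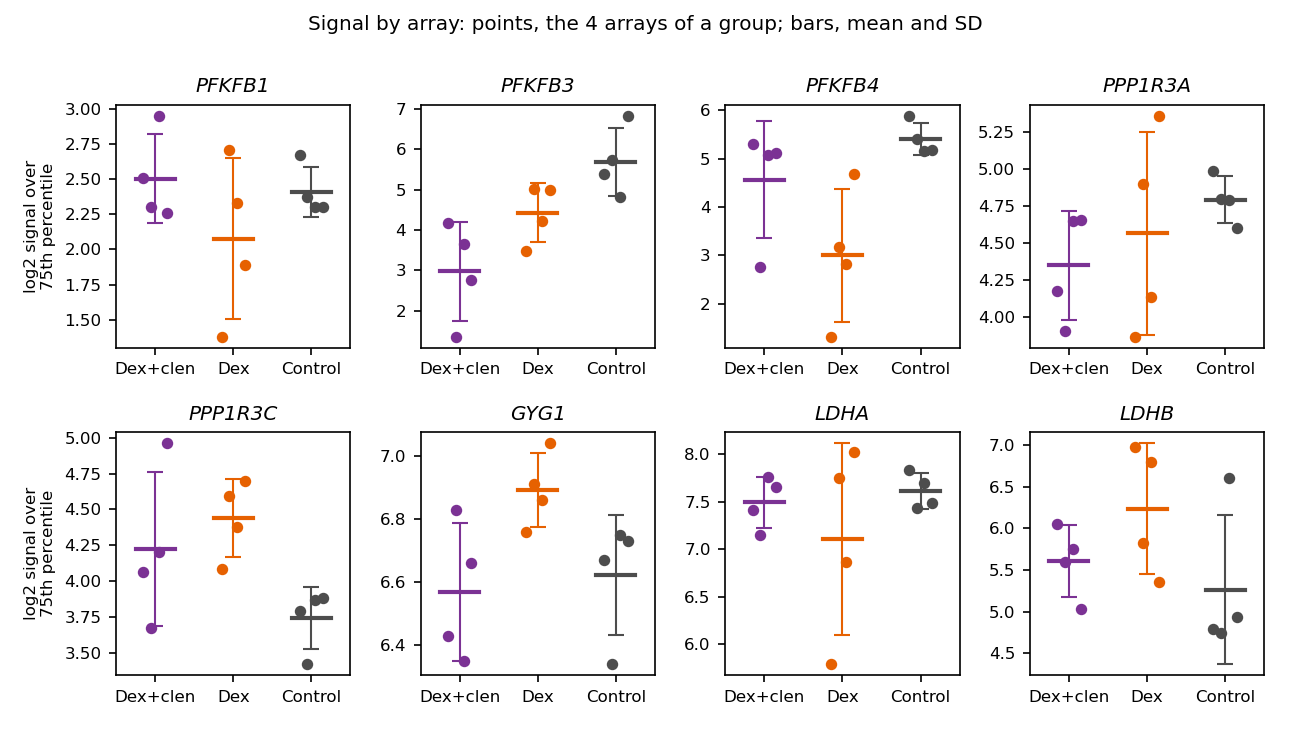
Log2 signal over the array's 75th percentile of 8 members on each array (points), with group mean and SD (bars), for dexamethasone plus clenbuterol, dexamethasone and control. PFKFB3 is lowest with the combination, PFKFB4 lowest after dexamethasone alone, and PPP1R3C is lowest in controls. The vertical axes do not start at 0 and differ between genes.

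Of the genes of glycogen synthesis 5 of 7 lay above 0 in dexamethasone against control, with a median log2 change of 0.20. Without dexamethasone array 1 it was 6 of 7, with a median of 0.28. In the combination against control 4 of 7 lay above 0 (median 0.05), and in the combination against dexamethasone 3 of 7 (median -0.21). PPP1R3C, a targeting subunit that brings protein phosphatase to glycogen and so favours its synthesis, read 4.06, 3.67, 4.20 and 4.96 in the combination group. It read 4.08, 4.59, 4.38 and 4.70 after dexamethasone, and 3.79, 3.42, 3.87 and 3.88 in controls. Every dexamethasone array lay above every control, while 1 combination array lay among the controls.

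PPP1R3C averaged 4.44 ± 0.27 after dexamethasone and 3.74 ± 0.22 in controls (SD, n = 4 each), 1.62-fold higher. The log2 change was 0.70 ± 0.25 (SE; 95% interval 0.15 to 1.25) with a limma adjusted p of 0.28. It was 0.82 without dexamethasone array 1, and 0.47 within scan day 2 against 1.01 outside it. In the combination against control it was 0.48 ± 0.25 (limma adjusted p = 0.463), at 0.10 within scan day 2 and 1.27 outside it.

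GYG1, glycogenin, the protein primer on which glycogen is built, was the other member of this role whose groups did not overlap. It read 6.76, 6.91, 6.86 and 7.04 after dexamethasone, against 6.67, 6.34, 6.75 and 6.73 in controls. The nearest values were 6.76 and 6.75, so the separation is slight, and the log2 change was 0.27 ± 0.16 (limma adjusted p = 0.526). Its combination arrays, at 6.43, 6.83, 6.35 and 6.66, overlapped with the controls, with a change of -0.05 ± 0.16.

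None of the enzymes that build the glycogen chain passed. GYS1, muscle glycogen synthase, had log2 changes of 0.20 ± 0.25 in dexamethasone against control and 0.23 ± 0.25 in the combination against control. A second GYS1 probe gave 1.08 and 1.31, but it was above background on only 2 of 12 arrays. GBE1, the branching enzyme, had 0.25 ± 0.30 and 0.44 ± 0.30, with 0.40 and 0.66 from its second probe. UGP2, which makes the UDP-glucose that glycogen synthase uses, had 0.07 ± 0.30 and -0.21 ± 0.30. PGM1, which interconverts glucose phosphates at the branch to glycogen, had -0.42 ± 0.36 and 0.05 ± 0.36. Without dexamethasone array 1 the changes in dexamethasone against control were 0.30 for GYS1, 0.06 for GBE1, 0.28 for UGP2 and -0.05 for PGM1.

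PPP1R3A, the glycogen-targeting subunit known from striated muscle, had changes of -0.23 ± 0.30 and -0.44 ± 0.30 in dexamethasone and in the combination against control. The first of these was 0.005 without dexamethasone array 1 and 0.06 with the scan block. The difference of PPP1R3A and PPP1R3C on the same array was tested as 1 of 5 pairs of a muscle form and a widely made form. PPP1R3A minus PPP1R3C was 0.13, 0.24, 0.46 and -0.30 in the combination group. It was -0.22, 0.31, -0.23 and 0.65 after dexamethasone, and 1.20, 1.38, 0.92 and 0.72 in controls. All 8 treated arrays lay below all 4 controls. The shift was -0.93 in dexamethasone against control and -0.92 in the combination against control (two-sided exact permutation p = 0.0286 in each, the smallest that 4 against 4 arrays allow). Adjusted over the 15 pair tests each p was 0.214, so neither passed, and the treated groups differed by 0.0025 (exact permutation p = 1). Within scan day 2 the shifts were -0.77 in dexamethasone and -0.44 in the combination, and outside it -0.52 and -1.47.

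Glycogen breakdown showed no passing change either. PYGM, muscle glycogen phosphorylase, and PHKA1, PHKB and PHKG1, subunits of the kinase that activates it, all lay below 0 in dexamethasone against control (median -0.25). All 4 lay above 0 in the combination against dexamethasone (median 0.27). PHKA1 was at 0.29 there, but its second probe, above background on all 12 arrays, gave -0.34. Without dexamethasone array 1 the pattern of the 4 genes was gone. Then 2 of 4 lay below 0 in the first comparison (median 0.04) and 3 of 4 in the last (median -0.11). PYGM read 5.76, 5.56, 5.91 and 5.92 in the combination group, 4.43, 6.02, 5.56 and 6.13 after dexamethasone, and 5.64, 5.33, 5.72 and 5.98 in controls. Apart from dexamethasone array 1 the values of the 3 groups overlapped throughout. Its log2 change was -0.13 ± 0.32 in dexamethasone (0.24 without array 1) and 0.12 ± 0.32 in the combination, each against control.

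PHKA1 had the largest change of this role, -0.63 ± 0.45 in dexamethasone against control (limma adjusted p = 0.622), with -0.50 from its second probe. It was -0.23 without dexamethasone array 1. It was -1.37 within scan day 2 and 0.66 outside it, so its sign was not the same within and outside that day. PHKB had -0.32 ± 0.29, or -0.08 without dexamethasone array 1, with -0.36 from the other PHKB probe above background on all arrays, and the remaining PHKB probes were above background on none. PHKG1 varied more among controls, from -1.04 to 1.16, than it differed between groups, with changes of -0.17 ± 0.49 in dexamethasone (0.16 without array 1) and 0.27 ± 0.49 in the combination against control.

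No enzyme of the glycolytic chain passed in any comparison. GPI, PFKM, ALDOA and TPI1, the enzymes from glucose phosphate to the triose phosphates, lay below 0 in 4 of 4 cases in dexamethasone against control, from -0.41 (GPI) to -0.07 (TPI1). In the lower chain 5 of 6 lay below 0. Without dexamethasone array 1 only 2 of 4 and 2 of 6 did, and the upper chain ran from -0.10 (GPI) to 0.24 (TPI1). After the combination the 10 genes ran, against control, from -0.31 (PFKM) to 0.08 (PGK1), with 4 above 0.

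GAPDH, a lower-chain enzyme often used as a reference gene, read 8.79, 8.51, 8.89 and 9.29 in the combination group. It read 7.73, 8.98, 8.70 and 9.08 after dexamethasone, and 8.79, 8.75, 8.81 and 8.90 in controls. Controls spanned a narrow range, and dexamethasone array 1 lay well below every other array. The log2 change was -0.19 ± 0.27 (95% interval -0.78 to 0.40) in dexamethasone and 0.06 ± 0.27 (-0.53 to 0.64) in the combination, each against control. The first was 0.11 without dexamethasone array 1. The second GAPDH probe gave -0.35 and 0.30, and LOC616200, a near copy that the files describe as GAPDH and that may share its signal, gave -0.16 and 0.06.

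Dexamethasone array 1 was also the lowest for most of the remaining enzymes of the chain. PKM, pyruvate kinase, showed the widest spread, with 4.28, 6.16, 5.64 and 6.70 after dexamethasone against 6.35, 5.60, 5.63 and 6.46 in controls. Its change was -0.32 ± 0.44, or 0.16 without dexamethasone array 1. ENO3, muscle enolase, had -0.14 ± 0.27 and PGAM2, muscle phosphoglycerate mutase, -0.16 ± 0.37. PGK1, phosphoglycerate kinase, had -0.32 ± 0.32, and ALDOA, muscle aldolase, -0.10 ± 0.23. These changes were 0.15 for ENO3, 0.26 for PGAM2, -0.01 for PGK1 and 0.12 for ALDOA without dexamethasone array 1. ALDOA was saturated on 3 arrays. PGAM1, the widely made mutase, was the only chain member above 0 in that comparison with all arrays (0.07 ± 0.24, or -0.03 without dexamethasone array 1), and it was highest on array 3 of the dexamethasone group.

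**Figure D4:**
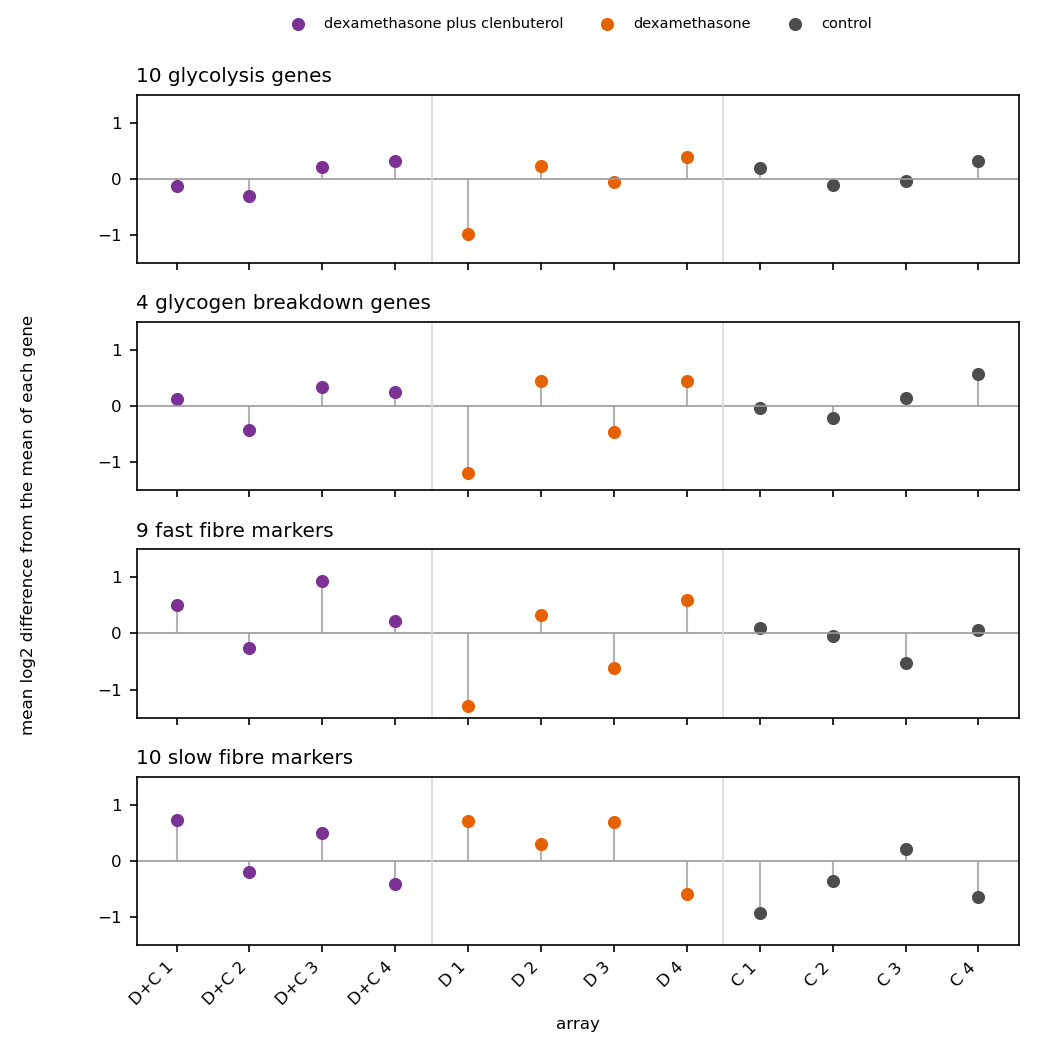
Mean per array of 10 glycolysis genes, 4 glycogen breakdown genes, 9 fast fibre markers and 10 slow fibre markers (panels), each gene centred on its mean over the 12 arrays (log2). Dexamethasone array 1 is lowest in the first 3 panels, at -0.99 for the glycolysis genes and -1.29 for the fast fibre markers.

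Glucose entry lay near or above 0 after dexamethasone. SLC2A4, which encodes GLUT4, read 3.66, 3.29, 3.59 and 3.94 in the combination group, 3.08, 3.73, 3.67 and 4.63 after dexamethasone, and 3.77, 3.29, 3.97 and 4.15 in controls. The groups overlapped fully, with changes of -0.02 ± 0.30 in dexamethasone (0.21 without array 1) and -0.18 ± 0.30 in the combination against control. HK1, the widely made hexokinase, had 0.60 ± 0.36 (limma adjusted p = 0.534) and 0.10 ± 0.36. HK2, the insulin-responsive hexokinase of muscle, had 0.55 ± 0.57 (0.82 without dexamethasone array 1) and 0.30 ± 0.57, and ranged from 1.89 to 4.53 within the combination group alone. HK2 minus HK1 shifted by -0.04 in dexamethasone against control (exact permutation p = 0.943).

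At the lactate end LDHA lay below 0 and LDHB above it in dexamethasone against control. LDHB, the lactate dehydrogenase subunit typical of heart and slow fibres, read 6.05, 5.60, 5.75 and 5.03 in the combination group. It read 6.98, 5.82, 6.80 and 5.35 after dexamethasone, and 4.79, 4.74, 6.60 and 4.93 in controls. Control array 3 lay among the dexamethasone values, so the groups overlapped. The log2 change was 0.97 ± 0.46 (95% interval -0.02 to 1.97; limma adjusted p = 0.418) in dexamethasone and 0.34 ± 0.46 in the combination against control. The first was 0.73 without dexamethasone array 1, on which LDHB was highest. Within scan day 2 the dexamethasone difference was 1.60, but outside it was -0.02.

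LDHA, the subunit typical of fast glycolytic fibres, had -0.51 ± 0.39 in dexamethasone against control, and -0.07 without dexamethasone array 1. LDHA minus LDHB on the same array read -1.19, 1.93, 0.06 and 2.67 after dexamethasone, against 3.04, 2.69, 1.11 and 2.54 in controls. The shift of -1.48 did not pass (exact permutation p = 0.2; adjusted over the 15 pair tests, 0.918). The arrays with a low difference, dexamethasone 1 and 3 and control 3, also had the lowest means of fast fibre markers (-1.29, -0.61 and -0.53). The markers were uneven on dexamethasone array 3 and control array 3. TNNT3 (1.59 and 0.99), PVALB (-2.46 and -1.82) and ACTN3 (6.29 and 6.41) were low there. MYH4 (2.58 and 1.68) was above the other controls, and ATP2A1 (8.66 and 8.87) and TNNC2 (9.21 and 9.10) lay within the range of the other arrays. The part of fibre type in this result was not tested. GPD1, which links glycolysis to glycerol phosphate, had -0.22 ± 0.30 in dexamethasone (-0.03 without array 1) and -0.19 ± 0.30 in the combination, each against control.

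The members also differed in how much they varied between animals. The median SD of a member within the dexamethasone group was 0.64, against 0.36 over all genes, and 0.41 without array 1, against 0.30. In the combination group it was 0.39, against 0.29 over all genes, and in controls 0.28, against 0.28. Array 4 of the dexamethasone group, scanned on another day, was the highest of all arrays for 12 of 31 members, where 13.5% of all genes were highest on it. The dexamethasone group thus held both the array with most low members and the array with most high ones.

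Genes around these pathways were read from lists of isoforms, glycogen proteins, gluconeogenesis, lactate and pyruvate handling, and regulators. Of 83 such genes tested, 0 passed in any comparison by limma, and 11, 8 and 7 had an unadjusted p under 0.05 in dexamethasone against control, the combination against control and the combination against dexamethasone. These are 13.3%, 9.64% and 8.43%, against 12.3%, 12.1% and 11% of all genes. The largest changes of each list are given here. PDK4, the kinase that shuts pyruvate dehydrogenase and so keeps pyruvate from oxidation, read 3.67, 2.75, 2.75 and 3.69 in the combination group, 2.25, 3.68, 2.77 and 3.43 after dexamethasone, and 4.24, 4.46, 4.54 and 5.26 in controls. All 8 treated arrays lay below all controls, with log2 changes of -1.41 ± 0.35 (limma adjusted p = 0.186) in the combination and -1.60 ± 0.35 (limma adjusted p = 0.0758) in dexamethasone. Within scan day 2 these were -2.20 and -2.36, and outside it -0.72 and -0.98.

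SLC16A1, a lactate and pyruvate transporter, read 0.42, 0.57, 0.29 and 0.13 in the combination group, 0.90, 1.05, 1.69 and 0.91 after dexamethasone, and 0.45, 0.73, 0.68 and -0.34 in controls. Dexamethasone alone was the high group and overlapped with neither of the others, at 0.76 ± 0.26 against control (limma adjusted p = 0.237). This change was 1.55 within scan day 2 (3 arrays against 1) and 0.29 outside it (1 against 3). The combination stood at -0.79 ± 0.26 against dexamethasone (limma adjusted p = 0.289). The difference between the treated groups was -0.79 within scan day 2, where the 2 groups were on different slides. It was -0.78 outside it, from 1 array against 1 of another day and slide. PPP1R3B, another glycogen-targeting subunit, had 0.96 ± 0.43 in dexamethasone against control and -0.97 ± 0.43 in the combination against dexamethasone (limma adjusted p = 0.383 and 0.43). The change against control was 2.31 within scan day 2 and 0.04 outside it. Its combination arrays, from -1.88 to -0.81, and its control arrays, from -2.48 to -0.04, overlapped.

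TXNIP, which restrains glucose uptake and responds to glucose, read 3.06, 2.13, 3.68 and 2.79 in the combination group against 3.77, 4.04, 4.07 and 3.82 in controls. Every combination array was below every control, at -1.01 ± 0.30 (limma adjusted p = 0.255), or -0.86 within scan day 2 and -1.17 outside it. Its relative ARRDC4 had -0.87 ± 0.34 (limma adjusted p = 0.356). SLC2A1, the widely made glucose transporter GLUT1, had 0.99 ± 0.35 in the combination (limma adjusted p = 0.316) and 0.82 ± 0.35 in dexamethasone (limma adjusted p = 0.364), each against control. Within scan day 2 these were 1.64 and 1.56, and outside it 0.35 and -0.08. PYGL, the liver form of glycogen phosphorylase, had -0.99 ± 0.27 in dexamethasone against control (limma adjusted p = 0.143). The regulator TBC1D4, which holds GLUT4 inside the fibre until insulin acts, had the largest change, 3.32 ± 1.16 in dexamethasone against control. Its dexamethasone arrays read 0.67, 1.37, 1.05 and 2.36, and its controls -3.06, -3.40, 1.89 and -3.28, so control array 3 lay among the dexamethasone arrays. The combination arrays read 1.43, 1.28, 0.92 and -2.56, the last of them near the low controls. The change did not pass (limma adjusted p = 0.258).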

How the data were processed

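Per the file headers, the deposited scanner files hold spot intensity on a linear scale from Agilent Feature Extraction 9.5.1.1, detrended spatially and by a multiplicative fit. The authors deposited a second table of intensity, used as an alternative. The log2 of the processed signal was taken from the deposited intensity, and the 75th percentile of each array subtracted. Spots marked as outliers (1 to 7 per array) were dropped, and spots of a probe averaged. A probe was kept if it was well above background on 4 or more of the 12 arrays (14703 probes), with the brightest probe for each gene (937 genes had several). Saturated spots (3 to 10 per array) were kept.

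Probe names were updated through a RefSeq gene table, used for names only. The 39 member probes were named through accession (17), gene number (8), human match (8), description (4: HK2, PHKA1 and PHKB) or symbol (2). The array design names no genome build, and probe sequences were not used here.

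The comparisons used limma 3.58.1 under R 4.3.3, with 3 group means fitted by lmFit to the 12 arrays, then eBayes. P-values were two-sided, adjusted by Benjamini-Hochberg over all 13669 genes and called under 0.05. In 10 simulations of dexamethasone against control with 13669 genes, 200 of them changed, 47.2% of log2 changes of 1 and 86.3% of log2 changes of 2 were recovered, with 6.8 false calls on average. The changed genes were drawn from all genes, with independent normal noise at each gene's SD. Members varied more than all genes in the dexamethasone group (median SD 0.64 against 0.36), and the shares recovered were not measured for members. Pairs of forms were compared by exact permutation. All 32 members are named, and of other pathway genes the 3 largest changes per list and comparison. Members and lists were chosen with earlier results of these data known. Alternatives covered scaling, background correction, filters, probe choice, scan day, slide, groups fitted and each array left out.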

Additional observations from a re-analysis of the deposited data

Results flagged for a closer look

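In each group of 4 arrays, each tested member was checked for an array whose gap to the nearest of the others, divided by the range of the group, exceeded Dixon's 95% critical value of 0.829. There were 93 such checks, chance marks about 1 group in 20, and 4 were marked. PFKFB4 read 2.75 on array 2 of the combination group, against 5.07 to 5.31 on the other 3. LDHB read 6.60 on control array 3, against 4.74 to 4.93 on the other controls. GBE1 read 1.65 on dexamethasone array 1, against 0.83 to 0.97 on the others of that group. PGAM1 read 1.18 on array 2 of the combination group, against 0.97 to 0.99, a gap that is small in size.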

How the results depend on the processing

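Limma called 0 members under all 24 alternatives in every comparison. Over 2232 member changes under alternatives the lowest limma adjusted p was 0.0635, for PFKFB4 in dexamethasone against control without dexamethasone replicate 4. The sign differed in 131 of them, never for a change above 1 standard error. The count of all genes called moved more. In dexamethasone against control (84) it was 25 with no filter on dim probes, 13 with the scan as a block in 2 levels and 0 with a fixed block for scan day (1186 at an unadjusted p under 0.05). In the combination against control (6, 2 of them higher) it was 3 with quantile normalization, with normexp and quantile, and with only the 2 groups fitted, all lower. It was 2 with the mean of all probes of a gene, and 0 with no filter, the filter on all 12 arrays, either scan block and slide as a random block. In the combination against dexamethasone (2) it was 1 with normexp and with the filter on all 12 arrays. It was 0 with quantile normalization, median scaling, no filter, the mean of probes, either scan block, slide, and only the 2 groups. Leaving out 1 array gave 24 to 261, 0 to 11 and 0 to 74 called genes, the highest each time without dexamethasone replicate 1, and 0 members called. The member medians ran from -0.328 to 0.106, -0.163 to 0.076 and -0.198 to 0.252. The first was above 0 only without dexamethasone replicate 1. The second was above 0 without control replicate 4 (0.026) or combination replicate 2 (0.076), and the last below 0 without dexamethasone replicate 1 or combination replicate 4 (-0.003). With a fixed scan day block the medians were -0.523, -0.342 and 0.227, and with the block in 2 levels -0.062, 0.058 and 0.077. Median scaling gave -0.141, -0.116 and -0.017. Pairs of forms passing after adjustment stayed at 0. The causes of these shifts were not tested. No paired analysis was done, because each array is a different animal and the labels give no pairing between groups. Signal over background limits ENO1, the second GYS1 probe and 2 PHKB probes.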
